A study of Mus musculus with 2 samples.

Results

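The genes described here carry the signal of leukaemia inhibitory factor (LIF), interleukin-6 (IL-6) and their relatives from the cell surface to the nucleus. They are the ligands Lif and Il6, the receptor chains Lifr, Il6st, Osmr and Il6ra, the kinases Jak1 and Jak2, the transcription factor Stat3 and its inhibitor Socs3. Members were taken by symbol from the platform annotation, keeping probe sets assigned to 1 gene only. All 10 symbols were found, on 27 of the 34945 such probe sets and among 18193 genes in all. The genes were selected on their roles in the pathway and on measured log2 differences between these same arrays, that of Lifr among them, so the values below are a description.

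Primary myoblasts, the precursor cells of muscle fibres, came from newborn Sv129 mice and grew on laminin and collagen. The control culture spent 4 hours in low-serum medium, DMEM containing 2% horse serum. The other culture spent the same 4 hours in this medium plus Wnt3a at 100 ng/ml. Wnt3a is a secreted signalling protein whose receptors act by keeping β-catenin from being degraded. Each condition was read on 1 array, so no value has a replicate and no difference has a p-value. The labels do not say how many mice or cultures each RNA came from. The comparison asks which transcripts differ after the exposure to Wnt3a.

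Cytokines of the IL-6 family signal through the shared receptor chain gp130, the product of Il6st. LIF joins gp130 to the LIF receptor, whereas IL-6 first binds its own receptor chain, encoded by Il6ra, and then brings gp130 chains together. Janus kinases bound to the receptor tails then phosphorylate each other and the receptors, STAT3 docks there and moves to the nucleus, and SOCS3, itself made from a STAT3 target gene, shuts the receptor down. In muscle, LIF is known as a mitogen of myoblasts and IL-6 as a cytokine released by working fibres, and JAK and STAT proteins take part in both the proliferation and the differentiation of myoblasts.

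Lifr and Jak2 were higher on the Wnt3a array, and the other members differed little. Lifr was at least 3.53-fold and Jak2 2.74-fold higher on their brightest probe sets, the former taken against the floor given below. The dimmer Lifr probe sets, below that floor, were 1.66- and 1.29-fold higher as plain ratios. The remaining 22 probe sets, of the other 8 genes, had log2 differences between -0.16 and 0.23, the latter being 1.17-fold. Differences here are Wnt3a minus control on the scale of log2(intensity + 1), and a gene with several probe sets is given by the brightest on average. A gene counts as measured if this probe set was at or above a fixed floor of 6 on this scale, an intensity of 63, on at least 1 array. The floor is a level of brightness and not a detection limit. Of the 10 members 8 were measured, and Il6 and Osmr were below the floor on both arrays.

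Of the 8 measured members 2 were at least 2-fold higher and none was 2-fold lower. The shares over all 11397 measured genes were 0.254% for 2-fold higher and 0.0614% for 2-fold lower. A difference above zero was seen in 7 of the 8 members and in 47.3% of all measured genes. Nothing is read from the members' counts beside these shares, because the choice of members used this comparison. The median difference was 0.16 over the 8 measured members and -0.0057 over all measured genes. Lifr was in the 11th and Jak2 in the 21st place among all measured genes ordered from the highest difference. For scale, 95% of measured genes had differences from -0.33 to 0.33. Within a gene, probe sets at or above the floor on at least 1 array scattered with a pooled SD of 0.12, over 5084 genes. This is noise between probes and not between cultures.

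**Figure D1:**
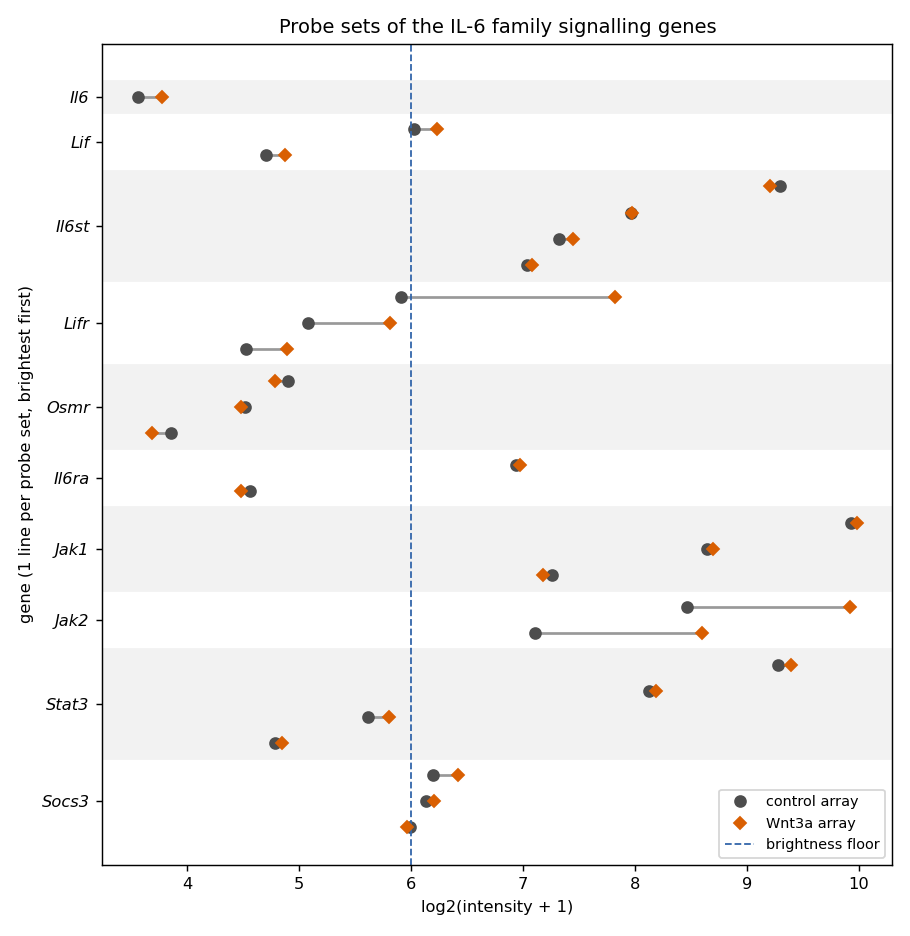
Each line joins the control value (grey circle) and the Wnt3a value (orange diamond) of 1 probe set, as log2(intensity + 1), for all 27 probe sets of the 10 genes, and the dashed line is the floor of 6. The long lines belong to Jak2, on both of its probe sets, and to the brightest probe set of Lifr, and all other lines except the dimmer ones of Lifr are short.

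The ligand genes were dim on both arrays. Lif, on its brighter probe set, had an intensity of 64.2 in the control and 74.1 with Wnt3a, just above the floor on both arrays. Its log2 difference was 0.20 there and 0.17 on the second probe set, which lay below the floor. Il6 had a single probe set, at 10.8 in the control and 12.7 with Wnt3a, near the lowest intensities of the arrays, which were 7.09 and 7.07. With no detection call, these values do not show whether the Il6 transcript was present.

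Il6st, which encodes the shared chain gp130, was above the floor on all 4 of its probe sets and nearly level between the arrays. Its brightest probe set read 626 in the control and 591 with Wnt3a, a log2 difference of -0.084 that turned to 0.11 when the arrays were scaled on their spike-in controls. The others read 249 and 251, 159 and 173, and 130.3 and 134, in the same order. Across the 4 probe sets the log2 difference averaged 0.024 ± 0.086 (SD over probe sets), with 3 above and 1 below zero. Il6ra, the chain that binds IL-6, was level too, at 121 in the control and 124 with Wnt3a, a log2 difference of 0.034. Its second probe set, below the floor, gave -0.080.

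Lifr, the receptor chain that binds LIF and pairs with gp130, was higher with Wnt3a on all 3 probe sets, by unequal amounts. The brightest went from 59.3 in the control, below the floor, to 225 with Wnt3a. The next went from 32.8 to 55.2 and the dimmest from 22.0 to 28.6, both below the floor on both arrays. On the log2 scale the differences were 1.91, 0.73 and 0.37, with a mean of 1.002 ± 0.81 (SD over probe sets). The size of the Lifr difference therefore rests on 1 probe set, while its direction was the same on the others. Genes of like brightness to the brightest probe set, the 500 nearest by mean level, had a central 95% between -0.31 and 0.41. For the level of Osmr, close to that of the dimmest Lifr probe set, this range was -0.32 to 0.38, which holds the 0.37.

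Osmr encodes the oncostatin M receptor chain, which also pairs with gp130 and resembles the LIF receptor. All 3 of its probe sets were below the floor and slightly lower with Wnt3a. The brightest read 28.8 in the control and 26.5 with Wnt3a, and the log2 differences were -0.12, -0.035 and -0.16, all of which turn positive under spike-in scaling. Osmr is also the protein-coding gene next to Lifr on its chromosome, by the order of genes in RefSeq's GRCm38.p6 annotation. The 3 nearest annotated genes on each side of Lifr included a single gene with a probe set, Egflam, which was below the floor with a log2 difference of 0.015. Among the 3 nearest protein-coding genes on each side, a set chosen after the values were seen, the log2 differences ran from -0.12 for Osmr to 0.36 for Gdnf, which was below the floor. In this neighbourhood Rictor, at 0.091, and Wdr70, at -0.042, were measured, and no gene came near the difference of Lifr.

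Jak2, a kinase that binds gp130 and also serves the receptors for growth hormone, erythropoietin and leptin, was higher with Wnt3a on both of its probe sets, and all 4 of these readings were above the floor. The brighter probe set went from 352 in the control to 965 with Wnt3a. The other went from 137 to 386. Their log2 differences were 1.45 and 1.49, a mean of 1.47 ± 0.028 (SD over probe sets), so the 2 probe sets differed from each other by less than the pooled SD of 0.12. The 500 genes of like brightness had a central 95% between -0.32 and 0.34.

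The other Janus kinases did not share this difference. Jak1, the kinase on which gp130 signalling mainly depends, read 973 in the control and 1007 with Wnt3a on its brightest probe set. Its 3 probe sets had log2 differences of 0.050, 0.055 and -0.076. Tyk2, another kinase that associates with gp130, was at -0.0083, and Jak3, a kinase of lymphocyte cytokine receptors, was at the floor with -0.048, both on the log2 scale. Of the 3 protein-coding genes on each side of Jak2, chosen after the values were seen, the highest log2 difference was 0.25, of Ak3, and the lowest -0.12, of Cdc37l1.

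**Figure D2:**
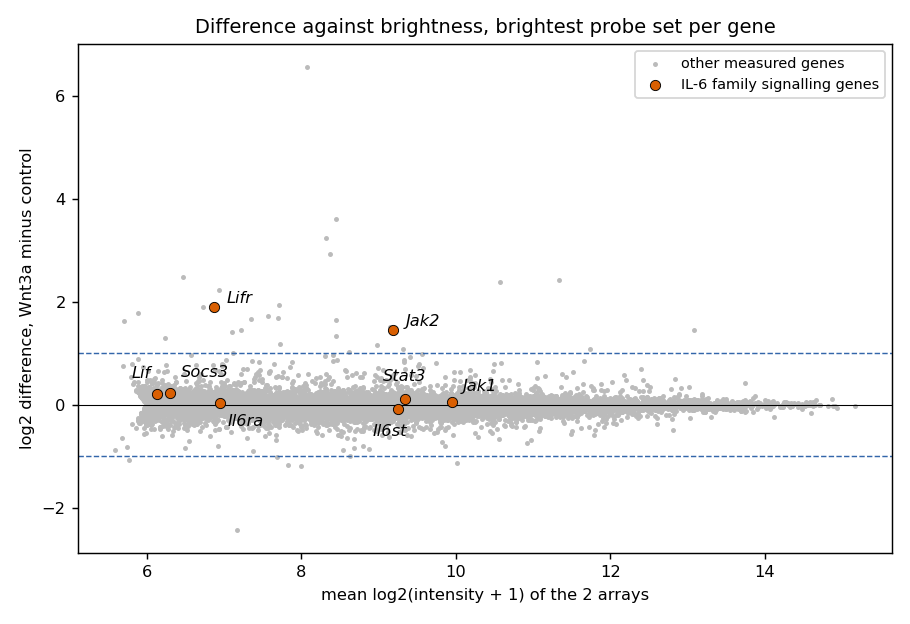
Each point is a measured gene on its brightest probe set, with the mean log2(intensity + 1) of the 2 arrays on the horizontal axis and the log2 difference, Wnt3a minus control, on the vertical axis; dashed lines mark 2-fold. Lifr at 1.91 and Jak2 at 1.45 (orange) stand above the upper line, while the other 6 measured members lie between -0.084 and 0.23, inside the band of the other genes (grey).

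Sequences before the transcription starts of Lifr and Jak2, the 2 members past 2-fold, and of Osmr, the neighbour of Lifr that stayed below the floor, are shown as RefSeq gives them for GRCm38.p6. Each run is the 250 bases before a start, 5′ to 3′ on the strand of the gene, and capitals mark CG dinucleotides, a property looked at after the values were seen. The Lifr run lies at chr15:7129322-7129571 on the + strand, Jak2 at chr19:29251553-29251802 on the + strand and Osmr at chr15:6874314-6874563 on the - strand.
Lifr: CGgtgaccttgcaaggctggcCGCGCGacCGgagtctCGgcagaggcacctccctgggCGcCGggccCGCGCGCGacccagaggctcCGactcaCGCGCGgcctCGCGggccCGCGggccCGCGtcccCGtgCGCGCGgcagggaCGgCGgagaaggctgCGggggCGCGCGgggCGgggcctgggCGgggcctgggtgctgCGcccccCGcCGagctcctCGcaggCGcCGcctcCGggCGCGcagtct
Jak2: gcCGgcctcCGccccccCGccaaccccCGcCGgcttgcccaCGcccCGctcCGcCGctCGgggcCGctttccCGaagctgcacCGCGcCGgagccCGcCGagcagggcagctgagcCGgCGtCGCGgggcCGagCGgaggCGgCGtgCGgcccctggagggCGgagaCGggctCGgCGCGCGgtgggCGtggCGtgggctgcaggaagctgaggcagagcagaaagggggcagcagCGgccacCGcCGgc
Osmr: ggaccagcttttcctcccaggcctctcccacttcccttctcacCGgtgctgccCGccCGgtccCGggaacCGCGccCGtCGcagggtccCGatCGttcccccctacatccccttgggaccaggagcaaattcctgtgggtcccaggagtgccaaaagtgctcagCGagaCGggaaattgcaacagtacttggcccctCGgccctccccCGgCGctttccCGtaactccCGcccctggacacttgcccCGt

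The Lifr run held 43 CG dinucleotides and the Jak2 run 37, the highest counts among the members' promoters. At least as many as in Lifr were found in 0.712% of the 32851 promoters of the table and at least as many as in Jak2 in 2.20%, where the median was 6. Il6st and Socs3 had 26 each, Jak1 19, Osmr and Il6ra 18 each, Stat3 13, Lif 6 and Il6 3. The table holds a second Lifr start, whose run had 3, and these arrays do not tell the starts apart. A TCF/LEF motif, CTTTGAA or CTTTGAT on either strand, was in none of the 11 windows of 300 bases, which end 50 bases after a start, and was in 8.65% of all windows. The STAT motif TTCNNNGAA was found in the Socs3 window, and it was in 8.30% of all windows. A match or its absence in such a short window says nothing about binding of the factor.

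Stat3, the main transcription factor downstream of gp130, was slightly above the control on all 4 probe sets. The brightest read 621 in the control and 672 with Wnt3a, a log2 difference of 0.11. The next read 279 and 289.6, and the other 2 were below the floor. Over the 4 probe sets the log2 difference was 0.11 ± 0.062 (SD over probe sets). Socs3, the feedback inhibitor that binds gp130 and the kinases, read 72.1 in the control and 84.7 with Wnt3a, near the floor on both arrays. Its log2 differences were 0.23, 0.068 and -0.030, the latter pair on probe sets whose names mark them as able to match several transcripts. All of these lay within the central 95% of genes of like brightness, -0.36 to 0.36 for Socs3 and -0.36 to 0.34 for Stat3.

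Around the members, a wider list of 50 genes covered the ligands, receptors, kinases, STATs, inhibitors and Ras branch genes of the pathway. Of these, 45 had a probe set and 39 were measured, 31 of them outside the members. Of the 31 genes 17 were higher and 13 were lower, against 47.3% of all measured genes higher. None of the 31 was 1.5-fold different, against 1.23% of all measured genes. Their log2 differences ran from -0.21 to 0.47 with a median of 0.028. Under spike-in scaling, which adds 0.19 to every difference, negative values smaller than this would turn positive, and Socs2, at 1.58-fold, and Stat5a would reach 1.5-fold, as 1.84% of all measured genes would on the high side.

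Among the 4 measured ligands, Clcf1, which encodes cardiotrophin-like cytokine, was lower on all 3 probe sets (log2 differences -0.21, -0.23 and -0.29), directions and sizes that are relative to the bulk of genes. Ctf1, encoding cardiotrophin-1, was at 0.15 and Osm, encoding oncostatin M, at 0.041, so with Lif 3 ligands were higher and 1 lower. With spike-in scaling the Clcf1 value of -0.21 would be close to zero. Of the 4 measured receptor chains 3 were higher, and 2 of the 4 kinases were. Beside the 47.3% of all measured genes that were higher, nothing is read from these counts. Cntfr, the receptor chain for ciliary neurotrophic factor, was at 0.18. Only Lifr reached 1.5-fold in that list, and only Jak2 among the 4 kinases, where 0.886% of all measured genes were at least 1.5-fold higher.

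Of the 5 measured STAT genes 3 were higher, 1 was lower and Stat2 had identical values on both arrays on its brightest probe set. The other Stat2 probe set, below the floor, gave -0.18. Stat5a, which acts downstream of growth hormone and prolactin receptors, had the largest log2 difference, 0.40, and a dimmer probe set below the floor gave 0.015. Its close relative Stat5b was at 0.095, and Stat6, the factor of IL-4 signalling, was at -0.056. The 15 measured inhibitors split into 8 higher and 7 lower. Their median was 0.055, which became -0.082 with the mean of all probe sets per gene. Socs2, a feedback inhibitor of growth hormone signalling, was highest at 0.47. Of its other 5 probe sets, the only further ones at the floor gave 0.72, which is 1.64-fold, and -0.090. Ptpn6 (0.28), a phosphatase of blood cells, Pias3 (0.18), an inhibitor of STAT3, and Socs1 (0.070), a potent inhibitor of Janus kinases, were higher by less, and Socs5 (-0.17), Ptpn1 (-0.16) and Cish (-0.12) were lower. In the Ras branch, which holds adaptors, the phosphatase gene Ptpn11 and the exchange factor genes Sos1 and Sos2, 5 of 7 genes were higher and 2 lower, with log2 differences from -0.12 for Sos2 to 0.12 for Shc1. Over all measured genes 47.3% were higher, and nothing is read from the counts of these lists beside that share.

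Genes often reported as STAT3 targets went in both directions, as all measured genes did, of which 47.3% were higher. Nothing is read from this split. Of 24 reported targets 19 were measured, 10 higher and 9 lower, with a median log2 difference of 0.025. Myc, which encodes a transcription factor of cell growth, was 2.19-fold lower on its single probe set and was the only one past 1.5-fold unless spike-in scaling is used, which adds Timp1, against 0.342% of all measured genes at least 1.5-fold lower. Junb, an AP-1 factor gene, was at -0.45 and Cebpd, a C/EBP factor gene, at -0.23, with 0.039 on a dimmer probe set of the latter. Timp1, an inhibitor of matrix proteases, was at 0.49 and the kinase gene Pim1 at 0.20. Bcl3, Icam1, Lcn2, Serpina3n and Fgl2 were below the floor on both arrays. Myc and Timp1 are known to respond to other pathways as well.

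**Figure D3:**
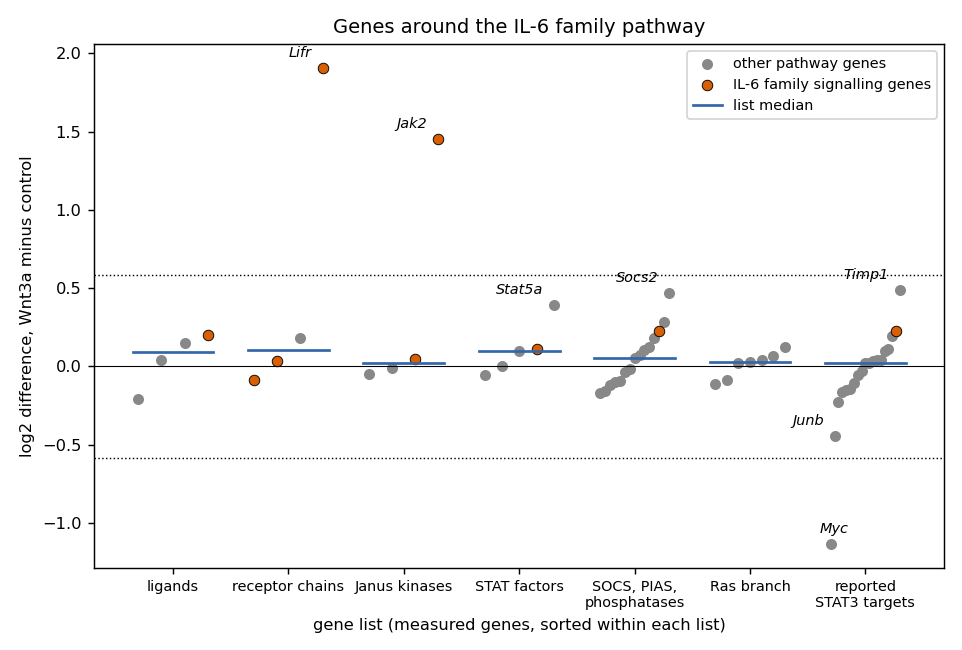
Points are the log2 differences, Wnt3a minus control, of measured genes on their brightest probe set in 7 lists, sorted within each list, with the 8 measured members in orange, list medians as blue lines and dotted lines at 1.5-fold. Outside Lifr, Jak2 and Myc, no gene of the lists passes a dotted line, though Socs2, Stat5a and Timp1 would under spike-in scaling, and the medians lie between 0.021 and 0.11.

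With 2 arrays, likeness of pattern can only mean likeness of the difference. The 5 measured genes nearest to Lifr in log2 difference were Osr2 (1.91), Tgfb2 (1.93), Wnt5a (1.78), Mir133b (1.73) and Nrcam (1.69). Of these, Osr2 and Wnt5a were below the floor in the control, as Lifr was. Nearest to Jak2, a question added after the values were seen, were Slc2a3 (1.46), Car3 (1.46), Dio2 (1.41), Acsl3 (1.503) and Cdc42ep2 (1.33). Axin2, the textbook target of Wnt and β-catenin used here as a check of the treatment label, was 12.2-fold higher on its brightest probe set.

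The check of the cell type label found all 9 myoblast markers above the floor, 5 higher and 4 lower with Wnt3a. Myod1, the determination factor of muscle, was at 13.41 in the control and 13.28 with Wnt3a on the log2 scale, while Myf5, Des and Myog had log2 differences of 0.49, 0.32 and -0.50. Summed over their brightest probe sets, the 10 leukocyte markers had an intensity of 636 in the control and 641 with Wnt3a. Of these markers 5 were measured, Csf1r, Laptm5, Cd3e, Fcer1g and Lyz2, none above 6.99 on the log2 scale, and the others, Ptprc among them at 3.83 and 4.11, were below the floor. The 9 fibroblast markers summed to 1117 and 1215, of which Tcf7l2 alone gave 857 and 944, and only Tcf7l2 and Dpep1 were measured. The sums were 249 and 214 for 7 endothelial markers and 667 and 713 for 5 Schwann cell markers. Of the endothelial markers Kdr and Tek were measured, and Tek, below the floor with Wnt3a, had a log2 difference of -0.82, at least 1.12-fold lower. Of the Schwann cell markers Erbb3, Sox10 and Ngfr were measured, Erbb3 the brightest at 8.58 in the control and 8.71 with Wnt3a on the log2 scale. The 6 lung epithelium markers summed to 619 and 316, mainly through Scgb1a1, which was below the floor with Wnt3a and at least 5.23-fold lower. Sftpc was below the floor with Wnt3a too, at least 1.24-fold lower, and its other probe set gave a log2 difference of 0.037. Sftpb, the remaining measured lung marker, went the other way, at 0.091. Of the 6 lung markers 3 were higher and 3 lower, with a median log2 difference of -0.051. None of the arrays' values is 0, so no marker is listed at 0. These arrays read whole cultures, in which fewer cells of a type and less RNA per cell cannot be told apart. The part of other cells in the Lifr and Jak2 differences was not tested. The 42 spike-in probe sets were all lower on the Wnt3a array, with a median log2 difference of -0.19.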

How the data were processed

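Biotin-labelled cRNA from total RNA was hybridised to 1 Affymetrix array per condition, per the labels' protocols. The authors deposited 1 intensity per probe set and array. RMA, affy and limma are named in the submitters' processing notes without versions or order. The intensities ran from 7.09 to 37075 in the control, which is a linear range, and the transformation behind it is not stated in any label. The number of arrays limits the precision.

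Log2(intensity + 1) was computed after leaving out 64 control probe sets. Folds with an array below the floor are given against the floor, as "at least", a bound on the ratio of these readings only. The dimmer Lifr probe sets are the exception, given as plain ratios of readings below the floor. The members and gene lists were chosen with earlier results of these data known. Every probe set of a member is covered. Of each wider list the text names genes past 1.5-fold and up to 4 with the largest differences, besides a few named for their role after their values were seen. The 5 genes nearest to Lifr, its neighbours and Axin2 were named by rule. Promoters were matched by symbol for all 10 members. Protein sequences were not analysed here. With 1 array per condition no test was possible. The procedure was tested on simulated data, with folds set in genes well above the floor on both arrays and equal over their probe sets. The values of Lifr, Lif, Il6ra, Socs3, Il6 and Osmr lie outside that setting. Python 3.11.15, numpy 2.4.6, pandas 2.3.3, statsmodels 0.14.6 and matplotlib 3.10.9 were used.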

Additional observations from a re-analysis of the deposited data

How the results depend on the processing

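With a pseudocount of 16 the Lifr difference was 1.68, and as the mean of its probe sets it was 1.002. With a floor of 8 on the log2 scale Lifr was not measured, so that 1 member was past 2-fold and past 1.5-fold, among 4 measured. Over all genes, 21 of the 7768 measured were at least 2-fold higher with that floor. Scaling on the spike-in controls moved every difference up: 2.10 for Lifr, 1.64 for Jak2, 0.35 for the median over members, and, for the list medians, 0.28 for ligands, 0.30 for receptors, 0.21 for kinases, 0.28 for STATs, 0.24 for inhibitors, 0.22 for the Ras branch and 0.21 for reported STAT3 targets. The median over all measured genes was then 0.18. With the mean of all probe sets, which leaves fewer genes above the floor, the receptor median was 0.51 and the inhibitor median -0.082. This receptor median rests on Lifr, at 1.002, and Il6st, at 0.024, alone. The Jak2 difference lay between 1.42 and 1.48 in the other 9 settings, and the count of members past 2-fold was 2 in 9 of 10. Settings were no floor, a floor of 8, no pseudocount, one of 16, values raised to the floor, probe set means, no probe sets that can match several transcripts, loess (span 0.3), quantile normalization and spike-in scaling. No paired analysis was possible because each condition has 1 array. Leaving out a replicate was not possible for the same reason.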

Other observations

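Cytokine receptors outside the gp130 family went in both directions, and none of those measured reached 1.5-fold, against 1.23% of all measured genes. Of 18 listed genes 16 had a probe set and 12 were measured, 5 higher and 6 lower, against 47.3% of all measured genes higher. Nothing is read from these counts beside those shares. The median log2 difference over the 12 genes was -0.053, which spike-in scaling would turn positive. Il1r1, the signalling receptor for interleukin-1, differed most, at -0.55, and a probe set far below the floor gave 0.071. Il15ra, the interleukin-15 receptor, was at -0.31, with -0.089 on its other probe set. Il10rb, a shared chain of the interleukin-10 family receptors, was at -0.25. Of the receptors for growth hormone, erythropoietin and leptin, which signal through the Jak2 kinase, Epor was at 0.23 and Ghr at 0.047, with 0.22 and 0.069 on the other probe sets of Ghr. Lepr, the leptin receptor, was at -0.38, but it was below the floor with Wnt3a and at least 1.13-fold lower, and its other probe sets, all below the floor, gave 0.010, -0.32 and -0.056.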
